A study of Mus musculus with 9 samples.

Results

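The distal ends of the mouse autosomes other than chromosome 7 were followed as interchromosomal contact regions of the Dbp locus, which lies on chromosome 7. An end was the set of array probes that start within 5 Mb of the last probe of a chromosome, for chromosomes 1 to 19 without chromosome 7. This gave 18 ends with 617 to 841 probes each, in all 13507 of the 384942 probes on the array, or 3.51%. The position of the probes alone chose the members, and each end was compared with the rest of its own chromosome on each array. Mouse chromosomes carry the centromere next to one end, so the distal end is the one far from the centromere.

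Chromosome conformation capture-on-chip (4C) ligates crosslinked DNA fragments to a chosen viewpoint fragment and reads its ligation partners on an array. Dbp is a clock-controlled gene for a PAR bZIP transcription factor. It is switched on by the CLOCK:BMAL1 activator, of which Bmal1 encodes a subunit. In a nucleus, chromosomes occupy territories, and gene-rich regions of different chromosomes tend to lie closer to one another than to gene-poor regions. The values below are contact signals of 1 viewpoint and do not measure contacts of the ends with each other.

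The data were 9 two-colour arrays of mouse embryonic fibroblasts, all treated with dexamethasone for 2 h, which sets their clocks to a common phase, and harvested at a circadian time (CT) counted in hours. One Bmal1-/- line was sampled at CT22 and CT34. Wild-type (WT) line 1 was sampled at CT22, CT26, CT30, CT34 and CT46, and an independent WT line 2 at CT22 and CT34. Line 1 and the Bmal1-/- line were derived from siblings of one mating scheme and grown in DMEM with newborn calf serum, heat-inactivated fetal bovine serum and amino acids. Line 2 came from another cross and was grown in DMEM with fetal bovine serum, so line and medium cannot be told apart. The Bmal1-/- genotype rests on 1 line, so genotype and line cannot be told apart. Per the labels' protocols, 4C DNA was labelled with Cy5 and digested genomic DNA of the same cells with Cy3. No dye swap was used here.

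A probe was called high when its log2 ratio of 4C to genomic DNA exceeded the array's own 95th percentile over probes off chromosome 7, so that about 5% of those probes are high on each array. The spread of log2 ratios differed between lines. Its SD was 0.92 and 1.10 in the Bmal1-/- arrays at CT22 and CT34, 0.82 to 0.93 in the 5 arrays of WT line 1, and 0.39 and 0.41 in the arrays of WT line 2. The 95th percentile lay at 2.16 and 2.73 in Bmal1-/-, 1.64 to 2.07 in line 1, and 0.51 and 0.52 in line 2. The 2 arrays of line 2 had both the narrowest spread and, at many ends, the smallest differences given below, and the part of the spread in these was not tested.

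Distal ends held a larger share of high probes than the rest of their chromosomes in the mean of 18 chromosomes, by about 1 percentage point, and single ends lay on both sides. The mean share over ends was 6.29% ± 0.27 in Bmal1-/- (SD over arrays, n = 2), against 5.24% ± 0.04 in the rest of the same chromosomes. In WT line 1 it was 6.74% ± 0.48 in ends and 5.30% ± 0.01 in the rest (n = 5). In WT line 2 it was 5.80% ± 0.10 in ends and 4.86% ± 0.01 in the rest (n = 2). The mean difference was positive on each of the 9 arrays. It was 0.882 and 1.21 points in Bmal1-/- at CT22 and CT34, then 1.17, 2.09, 1.74, 0.924 and 1.26 points in line 1 from CT22 to CT46, and 0.871 and 1.00 points in line 2 at CT22 and CT34. The number of ends above the rest of their chromosome ranged from 10 to 14 of 18 per array.

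Each end was then tested as 1 of 460 blocks of 5 Mb that tile the 18 chromosomes from their distal ends, with limma across all blocks and 9 arrays and Benjamini-Hochberg adjustment over all of them. Of the 18 ends, 11 were higher than the rest of their chromosome, against 30.7% of all blocks. Another 5 of 18 were lower, against 47.2% of all blocks, and 2 (chromosomes 4 and 5) passed in neither direction. The median difference was 1.56 points over the ends and -0.56 points over all blocks. The ends ranged from -4.04 to 8.20 points, within the range of all blocks, which ran from -5.20 to 16.4 points. Arrays of one line are harvests of the same cells, so the error covers the spread between harvests and arrays more than that between independent cultures. With line as a random block, 9 ends were higher, against 22% of blocks, and the same number of ends, 5, were lower, against 32.2% of blocks. The ends of chromosomes 1 and 14 lost their call in that fit. On the mean log2 ratio in place of the share, 12 ends were higher in limma, against 33.9% of blocks, and 5 lower, against 48.9%.

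**Figure D1:**
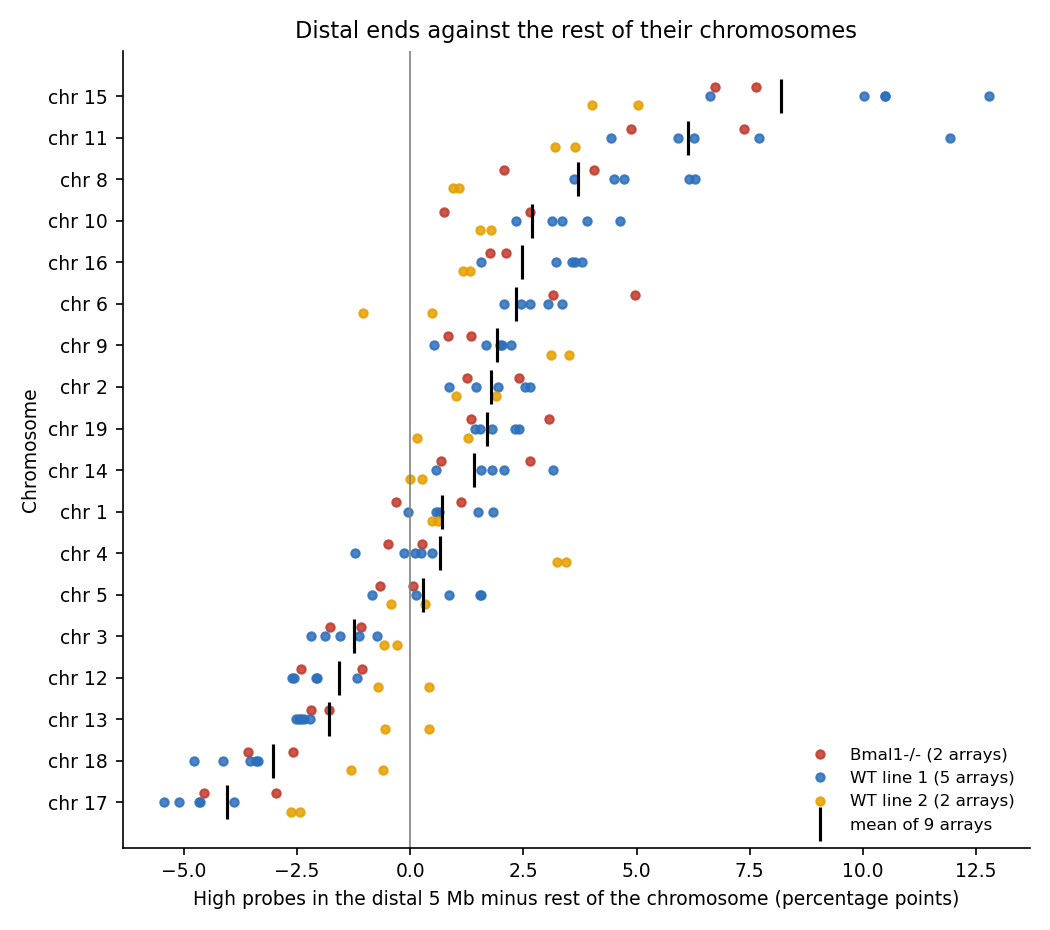
Share of high probes in the distal 5 Mb minus that in the rest of the same chromosome, in percentage points, for 18 chromosomes ordered by the mean over 9 arrays (vertical ticks); each point is 1 array. Chromosome 15 lies furthest to the right with a mean of 8.20 points and chromosome 17 furthest to the left with -4.04, and the 2 arrays of WT line 2 lie nearer to 0 than those of WT line 1 at both.

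The end of chromosome 15 (98499851 to 103492536 in the coordinates of the files, 752 probes) had the largest difference. Its share of high probes was 13.2% and 14.2% in Bmal1-/- at CT22 and CT34. In WT line 1 it was 17.0%, 19.0%, 17.2%, 13.3% and 16.4% from CT22 to CT46, and in line 2 it was 9.18% and 10.1%. In the rest of the chromosome the share was 6.44% and 6.59% in Bmal1-/-, 6.24% to 6.68% in line 1, and 5.17% and 5.08% in line 2. All 9 end values thus lay above all 9 values of the rest, and line 1 was above line 2 throughout. The difference was 8.20 points (SE 0.78, limma adjusted p = 2.07e-06). In the RefSeq annotation of assembly GRCm38.p6, used here for names only, the last protein-coding genes of this chromosome are Mucl2, Glycam1, Ppp1r1a (an inhibitor subunit of protein phosphatase 1) and Pde1b (a calmodulin-dependent phosphodiesterase).

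The end of chromosome 11 (116803833 to 121793766, 690 probes) came next. It held 11.9% and 14.8% high probes in Bmal1-/-, 15.7%, 19.9%, 13.6%, 11.9% and 14.1% in line 1 from CT22 to CT46, and 9.57% and 8.99% in line 2. The rest held 7.02% and 7.41% in Bmal1-/-, 7.45% to 7.95% in line 1, and 5.92% and 5.79% in line 2. The groups of end and rest values did not overlap, and the CT26 array stood highest for this end as it did for chromosome 15. The difference was 6.15 points (SE 0.72, limma adjusted p = 9.10e-06). Metrnl, which encodes a secreted meteorin-like factor, and B3gntl1 are among the last annotated genes.

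The upper 5 ends were completed by chromosomes 8, 10 and 16. For chromosome 8 (127068031 to 132065515, 731 probes) the end held 7.39% and 9.30% in Bmal1-/-, 9.17%, 12.3%, 11.6%, 10.5% and 10.1% in line 1, and 6.02% on both arrays of line 2. Its rest held 4.94% to 6.02% over the 9 arrays, and the difference was 3.71 points (SE 0.56, limma adjusted p = 5.42e-05). This end was higher than its rest on every array, least in line 2 with 1.08 and 0.95 points.

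For chromosome 10 (124949929 to 129949124, 691 probes) the end held 6.51% and 8.54% in Bmal1-/-, 9.26%, 9.99%, 11%, 8.54% and 9.55% in line 1, and 6.51% and 6.22% in line 2. Its rest held 4.68% to 6.35%, and the difference was 2.68 points (SE 0.38, limma adjusted p = 3.21e-05). For chromosome 16 (93248112 to 98245921, 756 probes) the end held 6.75% and 6.61% in Bmal1-/-, 7.80%, 8.07%, 8.20%, 6.08% and 7.54% in line 1, and 5.82% and 5.69% in line 2. Its rest held 4.23% to 4.97%, and the difference was 2.46 points (SE 0.35, limma adjusted p = 3.26e-05). On both chromosomes the end was higher on all 9 arrays, by 0.75 points at the least.

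The lower 5 ends lay on chromosomes 17, 18, 13, 12 and 3. On chromosome 17 (90185843 to 95174836, 698 probes) the end held 3.15% and 2.15% in Bmal1-/-, 3.01%, 1.72%, 1.72%, 2.01% and 2.15% in line 1, and 2.87% and 2.58% in line 2. Its rest held 6.12% and 6.71% in Bmal1-/-, 6.64% to 7.16% in line 1, and 5.31% and 5.21% in line 2. Every end value lay below every value of the rest, and the difference was -4.04 points (SE 0.35, limma adjusted p = 1.47e-06). The last annotated genes here include Adcyap1, which encodes the neuropeptide PACAP.

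On chromosome 18 (85730666 to 90721626, 729 probes) the end held 2.88% and 1.78% in Bmal1-/-, 1.23%, 0.82%, 1.92%, 2.06% and 1.78% in line 1, and 4.12% and 3.29% in line 2. Its rest held 4.6% to 5.6% over the 9 arrays, and the difference was -3.03 points (SE 0.40, limma adjusted p = 2.08e-05). The end and rest values did not overlap, and line 2 came closest to its rest.

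On chromosome 13 (115612222 to 120609087, 824 probes) the end held 3.16% and 2.91% in Bmal1-/-, 2.31% to 2.67% in line 1, and 4.00% and 4.85% in line 2. Its rest held 4.43% to 5.11%, and the difference was -1.79 points (SE 0.33, limma adjusted p = 0.000285). The CT34 array of line 2 was the exception on this chromosome, with the end 0.42 points above the rest. On chromosome 12 (115463967 to 120462150, 751 probes) the end held 3.73% and 2.40% in Bmal1-/-, 2.13% to 3.73% in line 1, and 5.19% and 3.99% in line 2. Its rest held 4.70% to 4.91%, and the difference was -1.59 points (SE 0.33, limma adjusted p = 0.000718). Here the CT22 array of line 2 was above its rest, by 0.42 points.

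On chromosome 3 (154876725 to 159870428, 796 probes) the end held 3.02% and 2.14% in Bmal1-/-, 1.51% to 2.89% in line 1, and 3.77% and 4.15% in line 2. The rest was higher on all 9 arrays, with 3.31% to 4.44%, and the difference was -1.24 points (SE 0.26, limma adjusted p = 0.000686). Wls, which encodes a carrier of Wnt proteins, and Rpe65, an enzyme of the visual cycle, are among the last annotated genes of this chromosome.

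The remaining ends lay between these. Chromosomes 6, 9, 2, 19 and 14 were higher by 2.35, 1.91, 1.78, 1.70 and 1.42 points (limma). The ends of chromosomes 6 and 14 were higher on 8 of the 9 arrays. In line 2 they differed from the rest by -1.05 and -0.008 points at CT22, and by 0.48 and 0.26 at CT34. Chromosome 1 was higher by 0.71 points (SE 0.27, limma adjusted p = 0.0265). Its call was lost without the Bmal1-/- CT22 array (0.66 points), the WT CT30 array (0.61) or the WT CT46 array (0.57), and the count of higher ends was then 10. The ends of chromosomes 4 and 5 differed from their rests by 0.66 (SE 0.46, limma adjusted p = 0.206) and 0.28 points (SE 0.30, adjusted p = 0.404).

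In the share of high probes, line 2 stood apart from the other lines at the end of chromosome 4. The share there was 3.50% and 4.37% in Bmal1-/-, 3.79%, 4.08%, 4.37%, 4.23% and 2.92% in line 1, and 8.16% and 8.45% in line 2. Both arrays of line 2 thus lay above all 7 others, and the difference from the rest was -0.12 ± 0.54 points in Bmal1-/-, -0.11 ± 0.66 in line 1 and 3.34 ± 0.14 in line 2 (SD over arrays). The end of chromosome 6 ran the other way, with 8.13% and 9.78% in Bmal1-/-, 6.99% to 8.26% in line 1, and 3.56% and 4.83% in line 2. On chromosome 9 the end held 5.20% and 6.11% in Bmal1-/-, 5.07% to 7.15% in line 1, and 8.32% and 8.58% in line 2. In the mean log2 ratio, the end of chromosome 4 minus its rest was 0.04 ± 0.12 in Bmal1-/-, 0.14 ± 0.02 in line 1 and 0.08 ± 0.02 in line 2. On that scale this end was higher than its rest on 8 of the 9 arrays (limma adjusted p = 0.00045). For chromosome 6 the values were 0.26, 0.12 and 0.01 in the same order, and for chromosome 9 they were 0.15, 0.11 and 0.05. Line 2 was thus the highest line at none of these ends on the log2 scale. The 3 contrasts between lines in the share were picked after the values were seen and were not tested. Across the 18 ends the difference from the rest in the share correlated at Pearson r = 0.97 and Spearman rho = 0.96 between Bmal1-/- and line 1. Of these ends, 17 had the same sign. Between line 2 and line 1 these were 0.77 and 0.72, with 15 ends of the same sign. Both pairs share the probes and the array design.

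The share in the end was also set against that in the rest over 18 chromosomes, as a description. Pearson r was 0.62 in Bmal1-/-, 0.58 in line 1 and 0.56 in line 2, and Spearman rho was 0.44, 0.47 and 0.59 in the same order. Chromosomes 19, 11 and 17 had the highest shares in the rest of the chromosome in line 1, at 8.53%, 7.77% and 6.87%, yet their ends differed from it by 1.90, 7.25 and -4.75 points in that line. Probes in ends were spaced somewhat wider, with a median distance of 6317 bp against 6182 bp in the rest, and 10 of 18 ends had the wider spacing. With the rest weighted to the spacing of each end, the mean difference was 1.2 points, against 1.24 unweighted. Across the 18 ends the difference correlated with the ratio of end to rest spacing at Pearson r = 0.44 and Spearman rho = 0.49. The part of spacing in single ends was not tested.

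No end was the highest block of its chromosome by the mean share over 9 arrays. Those of chromosomes 15, 11 and 9 were first or tied for first on at least 1 array. The ends of chromosomes 15, 11, 10 and 16 ranked 2 of 21, 3 of 24, 3 of 26 and 3 of 19 blocks by the mean share. In all, 5 ends ranked below the middle of their chromosome, and that of chromosome 17 ranked 19 of 19. Among all 460 blocks ordered by their difference, the end of chromosome 15 stood at place 4, that of chromosome 11 at 13 and that of chromosome 8 at 35, while that of chromosome 17 stood at 455. Blocks were also counted by their distance from the end. Of the 18 blocks at each distance, 11 were higher at 0 to 5 Mb, 8 at 5 to 10 Mb, 6 at 10 to 15 Mb, 7 at 15 to 20 and 20 to 25 Mb, and 6 at 25 to 30 Mb. There were 4 at each distance from 30 to 45 Mb, 5 at 45 to 50 Mb, 7 at 50 to 55 Mb and 6 at 55 to 60 Mb. The mean difference was 1.24 points at 0 to 5 Mb and 1.26 points at 20 to 25 Mb, where the medians were 1.56 and -0.41 points. These counts were not tested against each other.

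**Figure D2:**
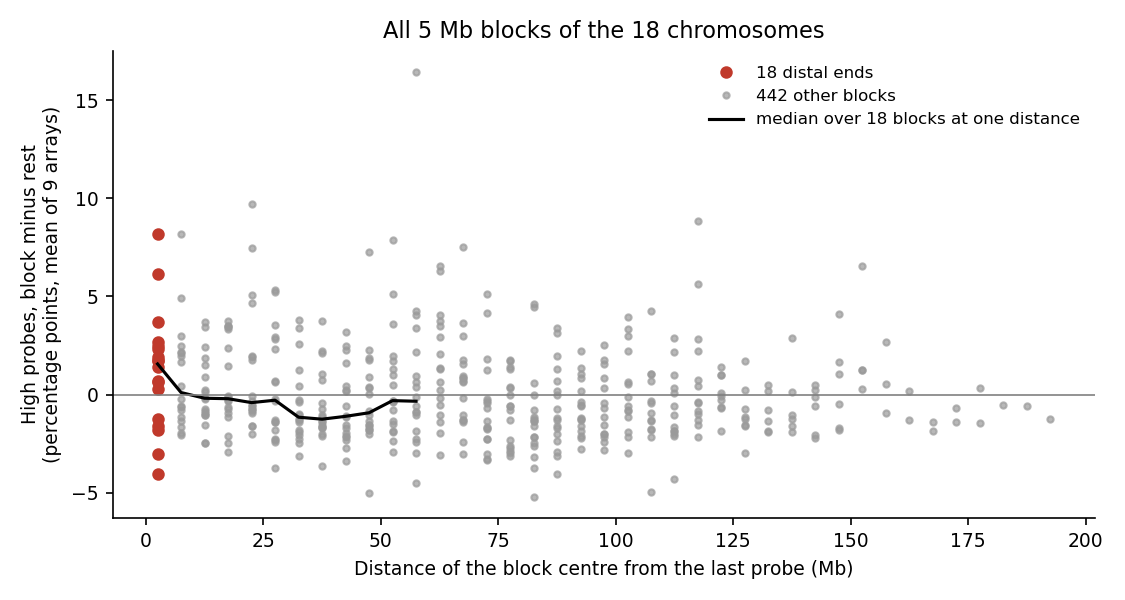
Difference in the share of high probes between each 5 Mb block and the rest of its chromosome (mean of 9 arrays, percentage points) against the distance of the block centre from the last probe in Mb. The 18 distal ends (red) have a median of 1.56 points and spread from -4.04 to 8.20; the line follows the median over 18 blocks to 60 Mb, and other blocks (grey) reach 16.4 points.

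The 5 Mb boundary was no step in the signal. In windows of 1 Mb averaged over chromosomes, the outermost to the fifth Mb held 6.52%, 6.90%, 6.35%, 6.00% and 5.81% high probes in Bmal1-/-. They held 6.22%, 7.12%, 6.98%, 6.60% and 6.91% in line 1, and 5.40%, 6.07%, 5.83%, 5.64% and 6.16% in line 2. The fifth Mb, the last inside the boundary, rests on 17 chromosomes. Just outside, at 5 to 6 Mb, the means were 6.67% in Bmal1-/-, 6.57% in line 1 and 5.54% in line 2. At 10 to 11 Mb they were 4.76%, 4.48% and 5.11%, and at 14 to 15 Mb 7.10%, 7.89% and 6.22% in the same order of lines. Some interior stretches were thus as high as the ends.

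**Figure D3:**
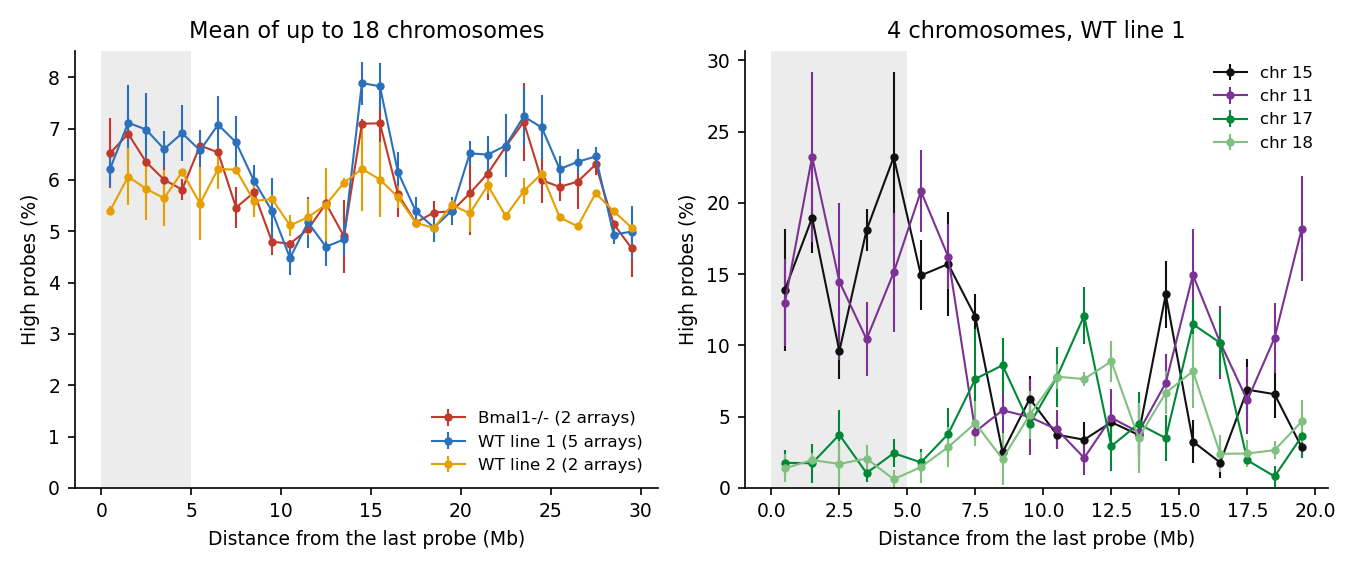
Share of high probes in 1 Mb windows against the distance from the last probe in Mb, with the 5 Mb end shaded; points are means and bars the SD over the arrays of a line. Left, the mean over up to 18 chromosomes lies between 5.40% and 7.12% within the end; right, in WT line 1, chromosomes 15 and 11 exceed 9% throughout the end and chromosomes 17 and 18 stay below 4%.

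Within single ends the high probes were spread unevenly. On chromosome 15 each of the 5 outer Mb held 8.38% to 18.4% in Bmal1-/-, 9.59% to 23.2% in line 1 and 8.22% to 11.4% in line 2, and the elevation went on to 8 Mb. On chromosome 11 the second Mb was the highest of the end, with 21.4% in Bmal1-/-, 23.2% in line 1 and 13.7% in line 2. On chromosome 10 the outermost Mb held 0% high probes in Bmal1-/-, 0.45% in line 1 and 3.38% in line 2, and the third Mb held 15.9%, 18.7% and 9.42%. The last 4 annotated genes of chromosome 10, Vmn2r84 to Vmn2r87, belong to the vomeronasal receptor family. The build of the probe coordinates is not stated, so these genes were not placed in any of these Mb.

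On chromosome 2 the 2 outer Mb held 10.6% and 10.1% in Bmal1-/-, 10.8% and 9.48% in line 1, and 8.39% and 9.74% in line 2, and the third Mb held 1.97%, 1.58% and 1.97%. On chromosome 12 the fifth Mb held 1.09%, 0.87% and 6.52%, and the tenth Mb, outside the end, held 13.7%, 18.6% and 9.01%. The length chosen for an end therefore decides some calls. With blocks of 10 Mb the end of chromosome 12 was 1.61 points above its rest, and with blocks of 2 Mb that of chromosome 10 was 0.65 points below. On chromosome 8 the highest of its 26 blocks lay directly inside the end, at 5 to 10 Mb, with a mean share of 13.5%.

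The proximal 5 Mb, next to the centromere, are the regions most like the ends in position at a chromosome's border. Their mean share was 6.54% ± 0.03 in Bmal1-/-, 6.77% ± 0.23 in line 1 and 5.07% ± 0.09 in line 2, beside the 6.29%, 6.74% and 5.80% of the distal ends. In limma across 426 blocks, 9 distal ends were higher than their proximal end, against 29.6% of blocks, and 5 were lower, against 40.1%. Chromosomes 15, 8 and 10 had the largest excess, with 6.30 (SE 0.68), 4.98 (SE 0.82) and 3.63 points (SE 0.54).

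The distal end of chromosome 19, which was higher than its rest, was 11.3 points lower than its proximal end (SE 1.18, limma estimate -11.3, adjusted p = 7.59e-06). That proximal end held 20.1% ± 1.5 high probes in Bmal1-/-, 24.8% ± 2.0 in line 1 and 11.3% ± 1.8 in line 2, and the distal end 10.1% ± 1.3, 10.4% ± 0.8 and 6.40% ± 0.42. The distal ends of chromosomes 18 and 17 differed from their proximal ends by -6.68 (SE 0.95) and -4.75 points (SE 0.47). On chromosome 11 both ends were high, at 15% ± 3.0 distally and 14.9% ± 0.5 proximally in line 1, and the difference over 9 arrays was 0.41 points (SE 0.59, limma adjusted p = 0.542). Against the proximal end 15 of 18 ends had the same call as against the rest. On the viewpoint's own chromosome 7 the distal 5 Mb held 42.6% high probes in Bmal1-/-, 48.0% in line 1 and 21.1% in line 2, against 32.5%, 35.7% and 19.4% in the rest of that chromosome.

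**Figure D4:**
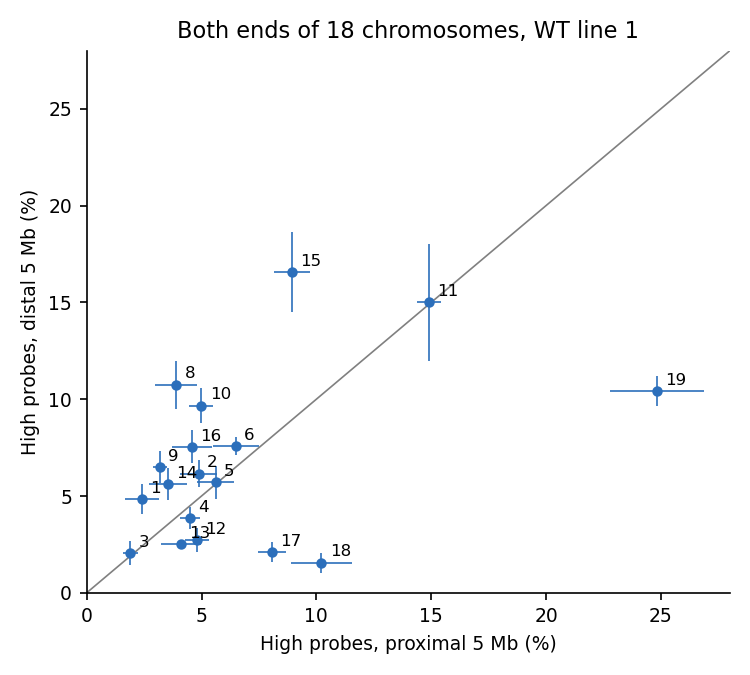
Share of high probes in the distal 5 Mb (vertical axis, %) against that in the proximal 5 Mb (horizontal axis, %) of 18 chromosomes in WT line 1, as mean and SD of 5 arrays; numbers name chromosomes and the line marks equality. Chromosome 15 lies above the line (16.6% distal, 8.94% proximal), chromosome 11 near it, and chromosomes 17, 18 and 19 below it (19: 10.4% distal, 24.8% proximal).

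On each array, windows of 100 kb with more high probes than the share off chromosome 7 gives were called contact windows (one-sided binomial test, adjusted over windows off chromosome 7). Such a call describes 1 array. Of 888 windows in ends, 1 and 5 were called in Bmal1-/- at CT22 and CT34, where 0.0338% and 0.182% of all windows off chromosome 7 were called. In line 1, 6, 11, 11, 3 and 6 were called from CT22 to CT46, against backgrounds of 0.402%, 0.601%, 0.402%, 0.169% and 0.245%. In line 2 no window off chromosome 7 was called on either array (background 0%). Over the 9 arrays 30 end windows were called at least once, which is 3.38% against a background of 1.43%. Of these, 9 were called on 2 or more arrays, 1.01% against 0.398%. The 30 windows lay on 8 chromosomes, with 10 on chromosome 15, 7 on 11, 5 on 10, 3 on 19, 2 on 8 and 1 each on 2, 9 and 16.

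The 9 windows called on 2 or more arrays lay on chromosomes 15, 11, 10 and 19. One more was taken from the windows called on 1 array as the one with the highest mean share of high probes over the 9 arrays. The first was chr15:101900001-102000000 with 14 probes, 1.54 Mb from the last probe. Its share of high probes was 28.6% and 42.9% in Bmal1-/-, 21.4%, 35.7%, 50.0%, 35.7% and 42.9% in line 1 from CT22 to CT46, and 14.3% and 21.4% in line 2. It was called on 3 arrays, 1 of Bmal1-/- and 2 of line 1. The window chr15:100100001-100200000 (12 probes) was called on 3 line 1 arrays and averaged 25.0% in Bmal1-/-, 43.3% ± 12.4 in line 1 and 8.33% in line 2. The third, chr15:102100001-102200000 (13 probes), averaged 42.3% ± 5.4 in Bmal1-/-, 36.9% ± 10.0 in line 1 and 3.85% ± 5.44 in line 2.

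Of the same kind was chr11:120200001-120300000 (15 probes), with 40.0% ± 9.4 in Bmal1-/-, 36% ± 13.8 in line 1 and 3.33% ± 4.71 in line 2, called on 3 arrays. Its neighbour chr11:120300001-120400000 (16 probes) was called on 2 and was as high in line 2, with 25.0% ± 8.8, 33.8% ± 18.0 and 34.4% ± 13.3 for the 3 lines in that order. The other 5 were chr15:103000001-103100000, chr10:126800001-126900000, chr19:57600001-57700000 and chr11:117400001-117500000 with 2 arrays each, and chr10:127900001-128000000 with 1. With 12 to 20 probes a window, 1 probe moves a share by several points, and the SD between arrays of line 1 was 10.0 to 18.0 points in these windows. No label or header names the genome build of the files, so no gene was assigned to a window, and no sequence was used here.

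The genotype comparison asked whether contacts of Dbp differ without Bmal1. It was made on the mean log2 ratio of each block over all chromosomes, with each array centred on its median, at CT22 and CT34 (2 Bmal1-/- arrays, 4 WT arrays of both lines, circadian time as a term). In limma across 522 blocks 0 blocks passed an adjusted p of 0.05 (background 0%), and 0 ends did. At an unadjusted p below 0.05 there were 152 blocks, 29.1%, and 4 ends of 18. The smallest p values among ends belonged to chromosomes 6, 17 and 19. The end of chromosome 6 averaged 0.39 and 0.60 in Bmal1-/- at CT22 and CT34, against 0.23 and 0.26 in line 1 and 0.04 and 0.03 in line 2. The difference was 0.36 (SE 0.10, limma adjusted p = 0.158). For chromosome 19 it was 0.37 (SE 0.13) and for chromosome 17 0.11 (SE 0.04), both with a limma adjusted p of 0.158.

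All 18 ends and all blocks had a higher mean log2 ratio in Bmal1-/-, with a median difference of 0.19 over ends and 0.15 over all blocks. The Bmal1-/- CT34 array had the widest spread of values of the 9 arrays and the 2 arrays of line 2 the narrowest. After quantile normalization, which gives all arrays the same spread, the medians were -0.03 over ends and -0.02 over blocks. There 7 of 18 ends were higher, against 39.8% of blocks. With block medians in place of means, and no quantile normalization, 7 ends were higher, against 40.6% of blocks. In the share of high probes 9 ends were higher, against 51.1% of blocks. With the rest of the chromosome subtracted, 11 ends were higher, against 43.4% of blocks. The sign for the ends thus depends on the scaling and on the measure. Some other fits changed the count of blocks. With all 5 times of line 1 as the only WT arrays and no time term, 6 ends passed, against 44.6% of blocks. With a mean trend and robust fitting in limma, 4 ends passed, against 29.9% of blocks. With the style of array names added to the fit on all 5 times of line 1, 0 ends passed, against 3.07% of blocks. An hour was recorded from the names of all arrays except both Bmal1-/- arrays and the WT CT26 array. At CT22 and CT34 this trait of the names and genotype thus cannot be told apart. With line 1 as the only WT line, paired by time (the 2 arrays of line 2 dropped, 1 residual degree of freedom), 13 blocks passed, 2.49%, and 1 end did, that of chromosome 6 at 0.25 (SE 0.08, limma adjusted p = 0.0435). In the same paired fit its call was lost after quantile normalization (limma adjusted p = 0.260), with the rest of the chromosome subtracted (0.183) and in the share of high probes (0.723), and 0 ends passed in each.

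For WT CT34 against CT22 (2 arrays each, 1 per line), the main fit had no term for line. Its error thus held the gap between lines. In it, 0 of 522 blocks and 0 ends passed in limma, and 0 blocks had an unadjusted p below 0.05. With line as a term, which leaves 1 residual degree of freedom, 0 blocks and 0 ends passed in limma. There 18 blocks, 3.45%, and 0 ends had an unadjusted p below 0.05. In the fit without line, chromosomes 13, 10 and 9 had the smallest p values among ends. Their differences were -0.02 (SE 0.05), -0.04 (SE 0.12) and 0.03 (SE 0.11). With line as a term they were the same, and each SE was 0.02. Within lines the CT34 minus CT22 difference of the 18 ends had a median of 0.002 in line 1, from -0.07 to 0.06, and of 0.005 in line 2, from -0.02 to 0.02. In the share of high probes 11 ends of line 1 were higher at CT34 and 7 lower, against 260 and 238 of all 522 blocks. With planted differences of 0.5, the fit without line recovered 60.6% of simulated blocks, and with 0.2 it recovered 26.5%.

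For a 24 h rhythm over the 7 WT arrays, with line as a term, 0 of 522 blocks and 0 ends passed the limma F test, while 70 blocks, 13.4%, and 0 ends had an unadjusted p below 0.05. The ends of chromosomes 4, 14 and 17 had the smallest p values, with fitted amplitudes of 0.05, 0.05 and 0.06 and limma adjusted p of 0.429, 0.429 and 0.433. In line 1 the end of chromosome 15 averaged 0.63, 0.59, 0.66, 0.59 and 0.77 from CT22 to CT46, and that of chromosome 17 averaged 0.03, -0.02, -0.09, -0.001 and -0.02. With a mean trend and robust fitting, 36 blocks (6.9%) and 0 ends passed. CT22 and CT46 are 1 day apart. Each time beyond CT22 and CT34 is a single array.

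The interaction of genotype and time asked whether CT34 and CT22 differ by another amount in Bmal1-/- than in WT. In the Bmal1-/- line 14 of 18 ends, and 422 of 522 blocks of all chromosomes, had a higher mean log2 ratio at CT34 than at CT22, with a median of 0.18 over ends and 0.08 over all blocks. In the share of high probes of that line 10 ends were higher at CT34 and 8 lower, against 248 and 258 of all 522 blocks. The end of chromosome 15 had a mean log2 ratio of 0.97 at CT34 and 0.64 at CT22, and that of chromosome 11 had 0.99 and 0.59. The CT34 array is also the array of widest spread. In limma, 0 of 522 blocks and 0 ends passed, and 0 had an unadjusted p below 0.05. In the simulated test this fit found 9.09% of blocks changed by 0.5, and 48.5% of those changed by 1.

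With WT line as a term, which leaves 1 residual degree of freedom, 240 blocks (46%) and 11 of 18 ends had a positive interaction. Another 5 blocks (0.958%) and 0 ends had a negative one. The largest among ends were chromosome 11 with 0.41 (SE 0.03) and chromosome 15 with 0.34 (SE 0.03), both with a limma adjusted p of 0.005. With the same term after quantile normalization, 0 blocks passed and the values were 0.17 (SE 0.04) and 0.11 (SE 0.04), and 0 passed in the share of high probes or with block medians. With the same term and each block taken minus the rest of its chromosome, 8 ends were positive, against 15.4% of blocks, and 3 negative, against 14.8%. Passing or not, 14 of 18 ends and 83.7% of blocks had an interaction above 0 with line as a term. The calls came with block means of the log2 ratios before quantile normalization, and not with block medians on the same scale. The spread of the arrays differed on that scale, and its part in the calls was not tested further.

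**Figure D5:**
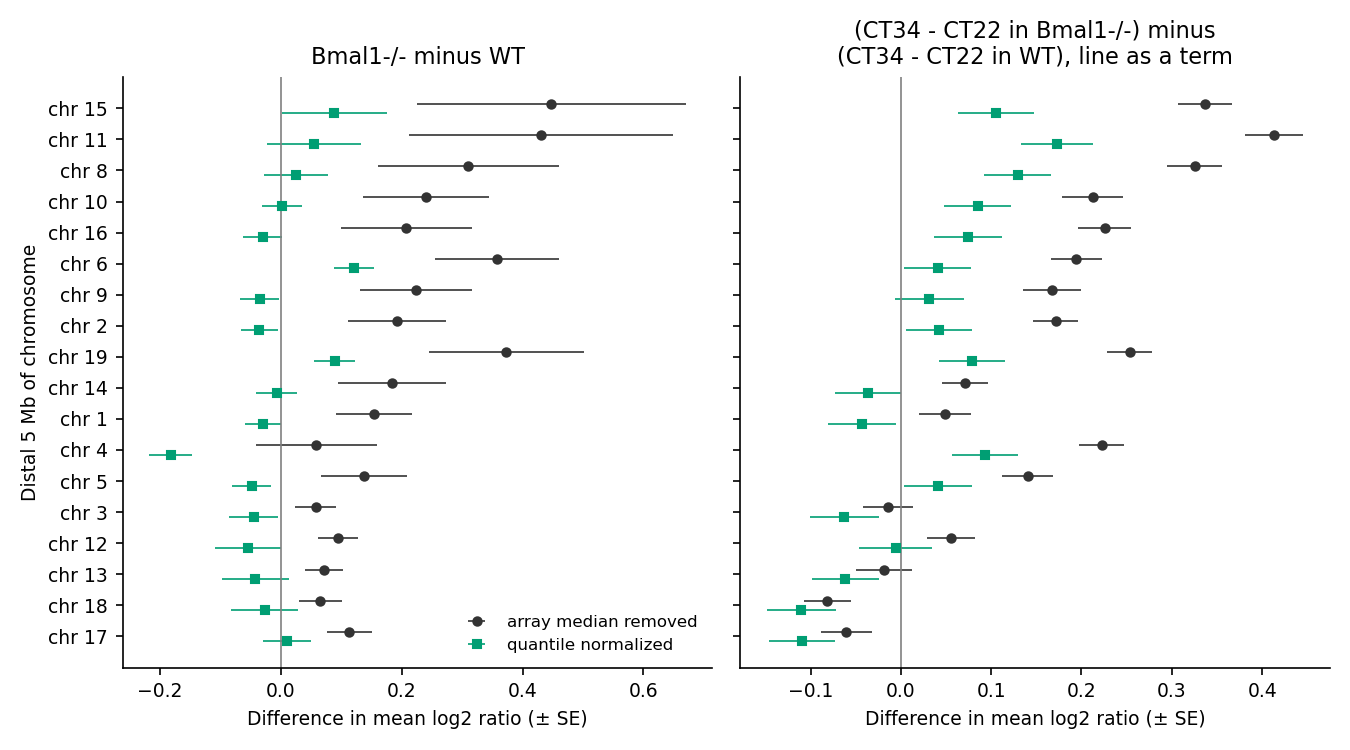
Difference in the mean log2 ratio of the 18 distal ends with its SE, for Bmal1-/- minus WT (left) and for the interaction of genotype and time with WT line as a term (right), from limma with array medians removed (dark circles) and after quantile normalization (green squares). On the left all 18 ends lie above 0 before quantile normalization and 7 of 18 after it; on the right chromosome 11 is at 0.41 before and 0.17 after.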

How the data were processed

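The authors deposited 1 file per array with a log2 ratio of Cy5 (4C DNA) to Cy3 (genomic DNA) for each 59 nt probe. Per the file headers these were written by NimbleScan after a shift by the array's biweight mean. The log base is the software's convention and is not written in the files. No label or header gives the background correction, filters or genome build. The number of arrays limits the precision.

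Ends, high probes (95th percentile of each array off chromosome 7) and blocks of 5 Mb with at least 50 probes, counted from the last probe, were computed with Python 3.11.15. Windows of 100 kb needed 5 probes. The tests used limma 3.58.1 in R 4.3.3 (lmFit, eBayes, two-sided, Benjamini-Hochberg over all blocks, 0.05) and were tried on simulated data. With 460 blocks, planted differences from the rest of 1, 2 and 5 points were recovered in 52.9%, 90.9% and 100% of blocks. Of 84 calls there, 3 were false. The noise was drawn for each array independently, while the real arrays of a line were correlated (consensus correlation 0.53). Recovery with correlated arrays was not simulated.

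Members, tests and named items were chosen with earlier results of these data known. All 18 ends were named, the 5 largest and 5 smallest differences per array, the 10 windows called on most arrays (ties by mean share of high probes), and the 3 ends of smallest p per comparison. WT CT22 and CT34 are paired, since samples with one replicate number come from one cell line. The main fit of CT34 against CT22 did not use this pairing, and the fit with line as a term did. The difference of line 1 and line 2 at CT22 correlated with that at CT34 (r = 0.94 over 493 blocks). Times follow the labels. Line 2 arrays are named with 24 and 36 in the headers. Alternatives are listed at the end. RefSeq names come from the GRCm38.p6 table.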

Additional observations from a re-analysis of the deposited data

How the results depend on the processing

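The count of ends higher than the rest was 10 to 11, and of lower ends 5 to 5, when single arrays were left out. Against the proximal end these ranges were 8 to 9 and 4 to 5. The mean difference ranged from 1.13 to 1.29 points, and was 2.24 points with the 90th percentile and 0.245 with the 99th. With blocks of 10 Mb, 10 ends were higher (36.5% of all blocks) and 2 lower (44.2%) than the rest. At that length 14 were higher (42.9%) and 3 lower (29.3%) than the proximal end. With 2 Mb, 9 ends were higher (27.6%) and 4 lower (45.0%) than the rest. Against the proximal end 5 were higher (20.5%) and 7 lower (37.0%) with 2 Mb, so that lower ends outnumbered higher ones there. The cause was not tested. Over the alternatives, 362 of 396 values of single ends against the rest kept their direction and side of the threshold. Direction turned on chromosome 12 with 10 Mb (1.61 points), on chromosomes 5 and 10 with 2 Mb (-0.72 and -0.65), on chromosome 4 with line 1 alone (-0.11), without line 2 (-0.11) and with the 99th percentile (-0.048), and on chromosome 5 with the 99th percentile (-0.19).

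For Bmal1-/- against WT, left-out arrays gave 0 to 0 blocks. All times of line 1 as the only WT arrays, without a time term, gave 233 blocks (44.6%) and 6 ends. With the array name style added to that fit, 16 blocks (3.07%) and 0 ends passed. Trend and robust fitting of the main comparison gave 156 (29.9%) and 4 ends. With line 1 as the only WT line, at CT22 and CT34 (the 2 arrays of line 2 dropped), 13 blocks and 1 end passed. That smaller fit combined with other choices was added after seeing the data. It gave 6 blocks with the rest subtracted and 3 after quantile normalization, with 0 ends in both. Direction turned for chromosome 17 with the rest subtracted (-0.093, and -0.020 with line 2 dropped too). It also turned for chromosome 19 with line 2 dropped and the share of high probes (-0.36 points). For CT34 against CT22 the replicate block (WT line as a term) called 0 blocks. Direction turned for chromosome 10 without WT CT22 replicate 1 (0.079) or CT34 replicate 2 (0.052), for chromosome 9 without CT34 replicate 1 (-0.073) or CT22 replicate 2 (-0.049), and for chromosome 13 in the share of high probes (0.55 points). Left-out arrays gave -0.157 to 0.079 for chromosome 10 and -0.073 to 0.142 for chromosome 9. With 1 array left out and no line term, the gap between lines enters this difference. Of all blocks, 89.5% were positive without CT22 replicate 1 and 84.5% without CT34 replicate 2. Without CT34 replicate 1 it was 4.02%, and without CT22 replicate 2 it was 5.75%. These left-out fits therefore cannot show how stable single ends were. The rhythm gave 0 to 1 blocks with arrays left out, 1 of them without WT CT30, and 36 (6.9%, 0 ends) with trend and robust fitting. For the interaction, the replicate block (line) gave 245 blocks and 11 ends, and with the rest subtracted 157 blocks, of which 80 were positive (15.4%) and 77 negative (14.8%), and 11 ends, 8 positive and 3 negative. Among the comparisons of conditions the replicate block changed no other count of called ends. Line as a random block left 9 ends higher than the rest, without chromosomes 1 and 14.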
